A study of Mus musculus with 7 samples.

Results

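The 32 genes described here encode the machinery of glycolysis, from glucose uptake to lactate export, together with the hypoxia-inducible factor HIF-1 and some of its best known targets. They were picked by gene symbol from a list of 32 symbols. All 32 symbols were found among the 28666 genes of the deposited table, and all 32 passed the filter on low counts that left 17461 genes to test. Aldoa was carried by a second gene ID with 12 to 34 counts per library, so the symbols matched 33 IDs and the abundant one was used.

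Glycolysis splits glucose into pyruvate in the cytosol, and cells that make lactate from pyruvate can keep the route running without mitochondrial respiration. HIF-1 is a transcription factor made of HIF-1α, encoded by Hif1a, and ARNT; prolyl hydroxylases of the EGLN family mark HIF-1α for destruction when oxygen is present, and HIF-1 binds the promoters of many glycolytic genes. In dendritic cells, the antigen-presenting cells of the immune system, activation is known to be accompanied by higher glucose uptake and lactate production.

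RNA was sequenced from bone marrow-derived dendritic cells (BMDCs) of female C57BL/6 mice aged 6 to 8 weeks, grown with GM-CSF and IL-4 for 7 days and then placed beside MC38 mouse colon carcinoma cells across a Transwell membrane. Flow sorting split them into immature cells (3 libraries) and mature cells (4 libraries). The study's text gives 24 h of DON, a glutamine antagonist, for the sorted cells, while a legend names DMSO or DON at 5 µM. In the study, DON went with 2 mM glutamine and DMSO with a lower glutamine concentration. The labels give no treatment, so the treatment of a single library is not known here. The surface markers of the sort were not given in the sources used here. The study says in general that its data come from independent biological experiments, while the labels do not tie a library to a culture or an animal, so p-values measure the spread between these libraries, whatever its source. The total count was 54846746 to 67973086 per library. Markers of mature dendritic cells went with the labels, and 7 of 8, such as Ccr7 and Fscn1, were higher in mature libraries. The summed FPKM of all 8 was 1381 to 1578 in immature and 6157 to 7613 in mature libraries. Ccl17, with 884.18 to 1071.03 FPKM in immature libraries, did not pass (edgeR adjusted p = 0.539). The list holds Cd80 and Cd86, by which the study scores mature cells elsewhere, so their rise may not be independent of the sort.

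Most of the genes of the route were lower in mature BMDCs. With edgeR's quasi-likelihood test, 14 of the 32 genes passed an adjusted p under 0.05 and a change of at least 2-fold in the lower direction, against 9.95% of all genes tested. In the higher direction 2 of 32 passed, Pfkfb3 and Eno2, against 13.2% of all genes tested. On the adjusted p alone 26 of 32 were lower, against 22.9% of all genes, and 3 were higher, against 23.2%. The 26 were also the genes whose immature and mature libraries did not overlap in the lower direction, a pattern held by 26.7% of all genes, while 2 did not overlap in the higher direction, against 25.4%. The median log2 fold change, mature against immature, was −0.82 over the 32 genes, 27 of which were negative, and 0.06 over all genes tested. These are bulk RNA values, in which fewer cells of a type and less RNA per cell cannot be told apart.

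**Figure D1:**
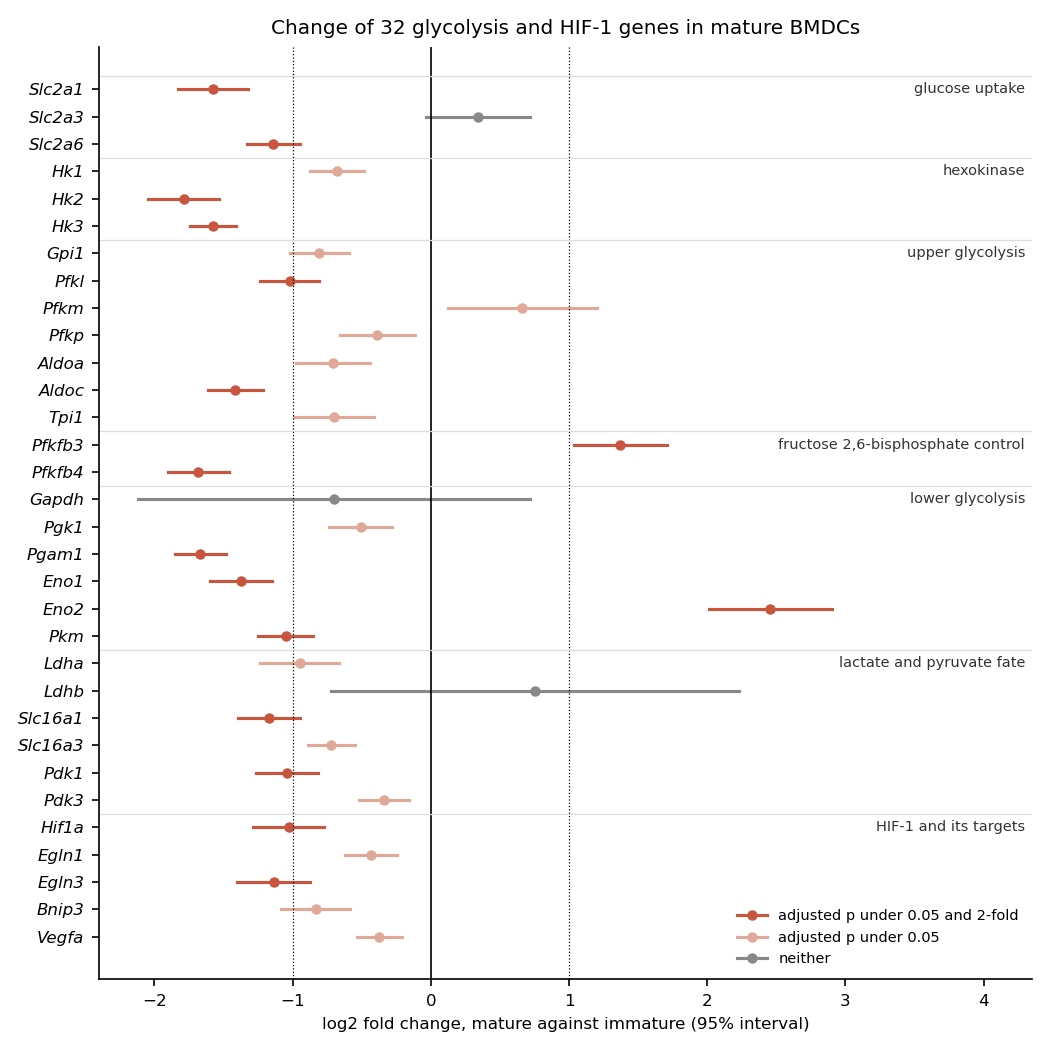
Log2 fold change of each of the 32 genes in mature (4 libraries) against immature (3 libraries) BMDCs, grouped by role; points are edgeR estimates, lines their 95% intervals, and dotted lines mark a 2-fold change. Only Pfkfb3 and Eno2 lie beyond the dotted line on the right, at 1.37 and 2.46, while 14 genes lie beyond the one on the left.

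Other features of the libraries moved with these values. All 9 macrophage markers, among them Cd68, C1qb and Csf1r, passed in the lower direction, and their summed FPKM was 916 to 949 in immature and 167 to 190 in mature libraries, with none at 0. Cardiac and skeletal muscle markers, of which 17 were in the table, summed to 2.63 to 3.05 FPKM in immature libraries, 13.1 in mature replicate 1 and 301 to 322 in mature replicates 2 to 4, and all 16 that were tested passed in the higher direction. Myl2, Nppb and Myoz2 had 0 counts in every immature library, and Nppb and Myoz2 also in mature replicate 1. Kidney markers summed to 201 FPKM in mature replicate 2 and to 2.84 to 5.05 FPKM in the 6 others, and 1 of the 2 tested, Slc12a3, passed in the higher direction. The part of the macrophage markers in the results was not tested. With mature replicate 1 as the lone mature library, whose spread is then assumed to be that of the immature ones, the median log2 fold change of the 32 genes was −1.03, and 26 of them were lower at an adjusted p under 0.05 and 15 also by at least 2-fold. Mature replicate 1 was not free of muscle transcripts, though Tnni3 gave 11.18 of its 13.1 FPKM. Other muscle markers in it lay on both sides of the immature libraries. Myh6 and Ckm, at 0.5 and 0 CPM, were below them, and Myl2 and Actc1, at 0.30 and 0.64 CPM, were above them. The part of the muscle and kidney transcripts in the results was not tested.

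Glucose enters the cell through facilitative transporters. Slc2a1 encodes GLUT1, the widely expressed transporter and a textbook HIF-1 target. Its CPM, a count relative to the TMM-adjusted library size, was 179, 175 and 185 in immature replicates 1 to 3 and 51.5, 55.6, 63.4 and 70.1 in mature replicates 1 to 4. Every mature library was below every immature one, and the level was 2.98-fold lower (log2 fold change −1.58 ± 0.11, SE, edgeR adjusted p = 7.3e-06). Slc2a6, which encodes the lysosomal transporter GLUT6, was at 149, 148 and 139 CPM in immature libraries and at 65.7, 59.1, 70.7 and 68.5 CPM in mature libraries. It was 2.2-fold lower, again without overlap (edgeR adjusted p = 9.6e-06). Slc2a3, which encodes the high-affinity transporter GLUT3, stayed between 5.87 and 9.77 CPM in all 7 libraries, its groups overlapped and it did not pass (log2 fold change 0.34, 95% interval −0.03 to 0.72, edgeR adjusted p = 0.123). On the FPKM scale, which divides by gene length and so allows genes to be compared, Slc2a3 made up 0.92% ± 0.13 (SD, n = 3) of the 3 transporters in immature and 2.95% ± 0.42 (SD, n = 4) in mature libraries.

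Hexokinases phosphorylate glucose and so trap it in the cell. Hk2, on chr6:82725025-82774454, encodes the inducible form and had the largest fall of the 32 genes in the edgeR fit. Its CPM was 141, 128 and 140 in immature and 35.5, 38.7, 36.5 and 47.5 in mature libraries. All 4 mature libraries lay far below the immature ones, and the level was 3.45-fold lower (log2 fold change −1.79 ± 0.11, SE, edgeR adjusted p = 4.0e-06). Hk3, a form expressed in myeloid cells, had 240, 246 and 249 CPM in immature and 81.1, 76.6, 83.4 and 87.5 CPM in mature libraries, and was 2.98-fold lower (edgeR adjusted p = 8.8e-07). Hk1, the constitutive form, fell less, from a mean of 182 ± 5.55 (SD, n = 3) to 114 ± 9.67 CPM (SD, n = 4), or 1.60-fold (edgeR adjusted p = 2.52e-04). The make-up of the hexokinase pool on the FPKM scale therefore differed between the groups. Hk1 was 19.3% ± 0.32 (SD, n = 3) of it in immature and 31.6% ± 1.79 (SD, n = 4) in mature libraries, while Hk3 went from 60.1% to 52.8% and Hk2 from 20.6% to 15.6%, all without overlap.

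Between glucose 6-phosphate and the trioses, 6 of 7 genes fell at an adjusted p under 0.05 and 2 of them by at least 2-fold. The same falls were seen in 22.9% and 9.95% of all genes tested. Aldoa, the main aldolase, was the most abundant of the 32 genes on the FPKM scale, with 699.58, 733.45 and 689.92 FPKM in immature and 419.46, 431.06, 525.62 and 480.50 FPKM in mature libraries. Its CPM was 1.63-fold lower (edgeR adjusted p = 0.00129). Aldoc, the brain-type aldolase, was far less abundant on the FPKM scale (a mean of 27.2 in immature libraries) and fell further, by 2.66-fold, from 100, 93.8 and 110 to 40.2, 35.1, 39.3 and 37.4 CPM (edgeR adjusted p = 3.6e-06). Gpi1, which interconverts glucose and fructose phosphates, was 1.75-fold lower and Tpi1, which interconverts the trioses, 1.63-fold lower, both without overlap between groups. The 3 phosphofructokinase subunit genes serve the committing step, and they did not move alike.

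Pfkl, the liver-type subunit, was 2.03-fold lower, at 270, 291 and 287 CPM in immature and 124, 132, 156 and 146 CPM in mature libraries (edgeR adjusted p = 3.6e-05). Pfkp, the platelet-type subunit, was 1.31-fold lower, with a mean of 477 ± 10.2 (SD, n = 3) against 365 ± 54.7 CPM (SD, n = 4; edgeR adjusted p = 0.0267). The fall of Pfkp did not pass, at an edgeR adjusted p of 0.0609 to 0.0845, without immature replicate 1, 2 or 3 or mature replicate 1, and that of Pfkl was just short of 2-fold, with log2 fold changes of −0.97 and −0.99, without mature replicate 1 or 2. Pfkm, the muscle-type subunit, had 12.1, 13.5 and 12.1 CPM in immature libraries and 11.4, 22.6, 24.2 and 21.4 CPM in mature libraries. Mature replicate 1 lay just below the immature libraries on the CPM scale and the other 3 mature libraries above them, in the same 3 libraries that held muscle transcripts. Over all 4 mature libraries the log2 fold change of Pfkm was 0.66 (edgeR adjusted p = 0.0479). That adjusted p was 0.0941 to 0.134 without any 1 of immature replicates 1 to 3 and mature replicates 2 and 4, and 0.000399 without mature replicate 1. With mature replicate 1 alone, only 1 library, the log2 fold change of Pfkm was −0.11.

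Pfkfb3 and Pfkfb4 make and break down fructose 2,6-bisphosphate, an activator of phosphofructokinase, and they went in opposite directions. Pfkfb3, on chr2:11471433-11554077, encodes the form with the highest kinase activity and is a known HIF-1 target. Its CPM was 60.2, 54.8 and 61.8 in immature and 175, 164, 114 and 157 in mature libraries. All 4 mature libraries were above all immature ones, with mature replicate 3 the lowest of them, and the level was 2.59-fold higher (log2 fold change 1.37 ± 0.15, SE, edgeR adjusted p = 8.9e-05). Pfkfb4 was at 87.7, 79.1 and 85.2 CPM in immature and at 24.7, 27.4, 23.6 and 29.0 CPM in mature libraries. It was 3.21-fold lower (log2 fold change −1.68 ± 0.10, SE, edgeR adjusted p = 2.2e-06). On the FPKM scale Pfkfb3 was 31.1% ± 0.64 (SD, n = 3) of the pair in immature and 78.8% ± 2.65 (SD, n = 4) in mature libraries, so the more abundant of the pair was Pfkfb4 in every immature and Pfkfb3 in every mature library.

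**Figure D2:**
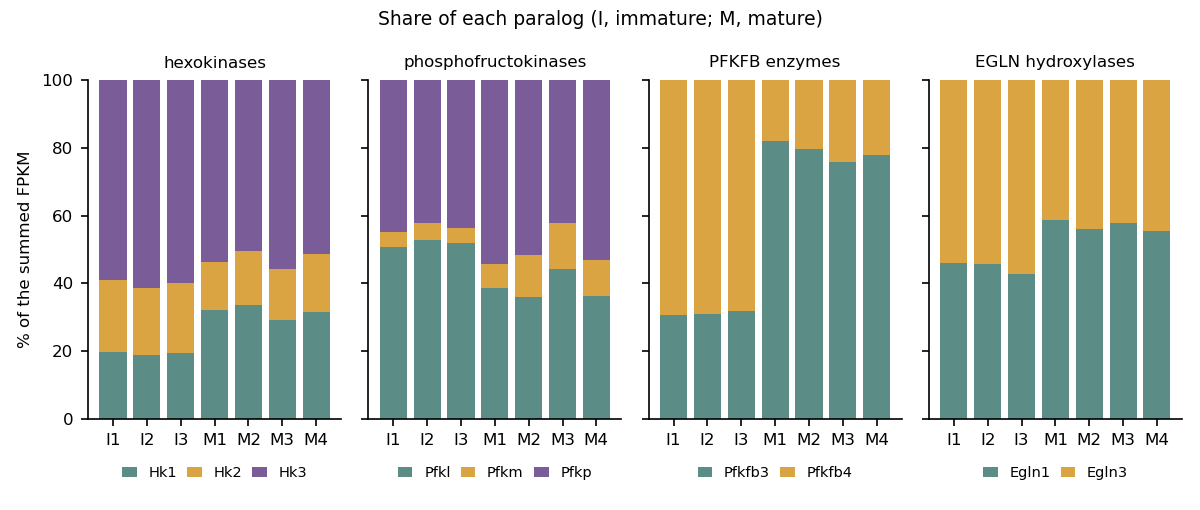
Share of each paralog in the summed FPKM of those members of its family that are among the 32 genes. Shares are per library (I1 to I3, immature replicates, and M1 to M4, mature replicates). Egln2, Pfkfb1 and Pfkfb2 are not counted. The PFKFB pair changed the most, with Pfkfb3 at 30.6% to 31.9% in immature and 75.8% to 82.1% in mature libraries.

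In the later steps of glycolysis, where ATP is recovered, the largest falls were at the phosphoglycerate mutase and enolase steps. Pgam1, on chr19:41911923-41918660, had 882, 893 and 932 CPM in immature and 260, 278, 291 and 305 CPM in mature libraries. The groups were well apart, with the mature level 3.18-fold lower (log2 fold change −1.67 ± 0.08, SE, edgeR adjusted p = 9.9e-07). Eno1, the ubiquitous enolase, on chr4:150236721-150248879, was at 2307, 2380 and 2343 CPM in immature and at 824, 827, 1030 and 944 CPM in mature libraries. It was 2.59-fold lower (log2 fold change −1.37 ± 0.10, SE, edgeR adjusted p = 8.2e-06). Pkm, the pyruvate kinase that makes pyruvate and ATP, fell from 2338, 2439 and 2416 to 1077, 1074, 1269 and 1212 CPM, or 2.07-fold (edgeR adjusted p = 2.0e-05). Pgk1, the phosphoglycerate kinase, fell less, 1.42-fold, from a mean of 987 ± 48.3 (SD, n = 3) to 694 ± 75.3 CPM (SD, n = 4; edgeR adjusted p = 0.00312).

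Eno2, the enolase of neurons, on chr6:124760053-124769621, went the other way. Its CPM was 1.75, 2.39 and 1.67 in immature and 12.4, 10.6, 10.6 and 8.99 in mature libraries. All 4 mature libraries, mature replicate 1 included, were well above the immature ones, and the level was 5.49-fold higher (log2 fold change 2.46 ± 0.20, SE, edgeR adjusted p = 1.5e-05). It remained small beside Eno1, at 0.09% ± 0.02 (SD, n = 3) of the FPKM of Eno1 and Eno2 in immature and 1.33% ± 0.28 (SD, n = 4) in mature libraries. Eno3, with means of 4.85 FPKM in immature and 25.2 FPKM in mature libraries, was not counted in that share.

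**Figure D3:**
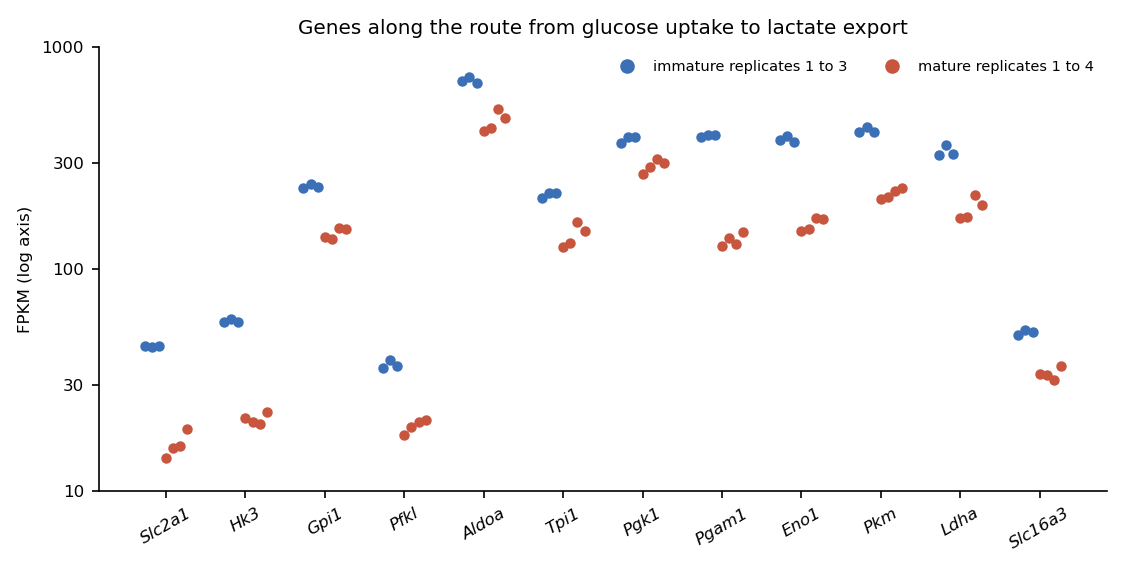
FPKM of 12 genes from glucose uptake to lactate export on a log axis, 1 point per library (blue, immature replicates 1 to 3; red, mature replicates 1 to 4). In each of the 12 genes every mature library lies below every immature one. Gapdh, whose groups overlapped, is not among the genes shown. Aldoa is the highest, at 689.92 to 733.45 FPKM in immature libraries.

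Gapdh, the dehydrogenase often used as a loading control, could not be read in this way. Its FPKM was 12.93, 68.48 and 19.07 in immature and 10.96, 35.67, 29.71 and 11.23 in mature libraries. The spread was wide within both groups, up to 5.24-fold among immature libraries on the CPM scale, the groups overlapped, and the gene did not pass (log2 fold change −0.70, 95% interval −2.12 to 0.72, edgeR adjusted p = 0.394). Without immature replicate 2 its log2 fold change was 0.33. The processed pseudogene Gapdh-ps15 had 49.29 to 71.74 FPKM and Gapdh-ps16 29.95 to 43.93 FPKM, and Gapdh lay below Gapdh-ps15 in all 7 libraries. How reads that match several copies were assigned is not given in the sources used here, so the level of Gapdh is uncertain. Of the copies of other members that were looked at, 6 could be tested and 5 were lower at an adjusted p under 0.05, like their parents. Of all genes tested, 22.9% were lower at that threshold. As the assignment of shared reads is not known, the copies may not be independent of their parents. Eno1b was at 55.4 ± 0.06 FPKM (SD, n = 3) in immature and 21.5 ± 0.41 FPKM (SD, n = 4) in mature libraries, a log2 fold change of −1.47, and Pgam1-ps2 had a log2 fold change of −1.70. Pgk1-rs7, Ldha-ps2 and Gpi-ps had log2 fold changes of −0.56, −0.89 and −0.82. Tpi-rs11 did not pass (log2 fold change −0.48, edgeR adjusted p = 0.237) and its groups overlapped, unlike those of Tpi1. Ldhb-ps, Pgam1-ps1 and Aldoart1 were too low to test. These copies were chosen after the values of their parents were seen.

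**Figure D4:**
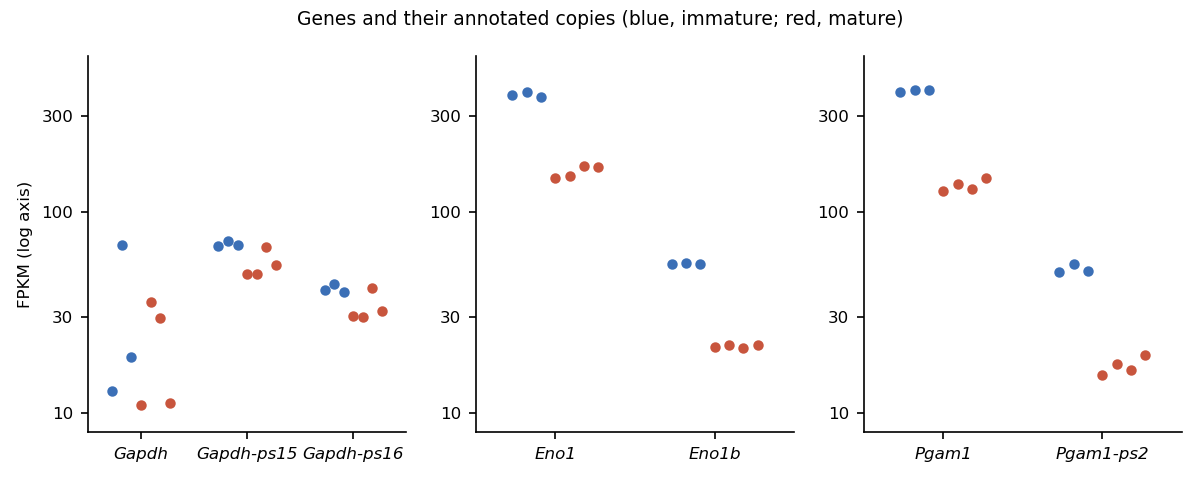
FPKM of Gapdh, Eno1 and Pgam1 beside annotated copies of each, on a log axis, 1 point per library (blue, immature; red, mature). Gapdh spreads over both groups at 10.96 to 68.48 FPKM, below Gapdh-ps15 in all 7 libraries, while Eno1 and Pgam1 exceed their copies.

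Pyruvate is either reduced to lactate and exported or carried into mitochondria. Ldha, the lactate dehydrogenase subunit of glycolytic tissues, was at 1219, 1333 and 1270 CPM in immature and at 580, 578, 805 and 673 CPM in mature libraries. All mature libraries were below all immature ones, and the fall was 1.93-fold (log2 fold change −0.95 ± 0.13, SE, edgeR adjusted p = 3.05e-04), short of the 2-fold criterion, which it passed without mature replicate 3 (−1.04). Slc16a3, which encodes the lactate exporter MCT4, was 1.65-fold lower, from a mean of 314 ± 10.3 (SD, n = 3) to 190 ± 10.1 CPM (SD, n = 4). Slc16a1, which encodes MCT1, was the less abundant transporter on the FPKM scale and was 2.25-fold lower, at 25.8, 29.8 and 28.1 CPM in immature and 12.7, 13.2, 11.4 and 12.2 CPM in mature libraries (edgeR adjusted p = 2.0e-05). Pdk1 and Pdk3 encode kinases that switch off pyruvate dehydrogenase. Pdk1, a HIF-1 target, was 2.06-fold lower (100, 102 and 104 against 48.0, 53.0, 42.5 and 54.5 CPM) and Pdk3 1.26-fold lower (edgeR adjusted p = 3.9e-05 and 0.00732). Without mature replicate 3 the log2 fold change of Pdk1 was −0.95.

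Ldhb, the lactate dehydrogenase subunit of the heart, on chr6:142490249-142507957, differed between the mature libraries. Its CPM was 10.3, 9.60 and 11 in immature libraries and 1.97, 25.4, 22.3 and 20 in mature replicates 1 to 4. Mature replicate 1 was the lowest of all 7 libraries and the other 3 mature libraries were the highest. The log2 fold change over all libraries was 0.76 with a 95% interval of −0.72 to 2.23 (edgeR adjusted p = 0.377). Mature replicate 1 alone, only 1 library, gave −2.36 against the immature libraries. Without mature replicate 1 the log2 fold change was 1.13 (edgeR adjusted p = 0.000236). Ldhb therefore had opposite directions in mature replicate 1 and in the mature libraries with a muscle marker sum of 301 to 322 FPKM. That sum was 13.1 FPKM in mature replicate 1, of which Tnni3 gave 11.18 FPKM. Pfkm was higher in the same 3 mature libraries, but in mature replicate 1 it lay close to the immature level, at 3.29 FPKM against 3.10 to 3.61 FPKM. Eno2 and Pfkfb3 were higher in mature replicate 1 as well.

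**Figure D5:**
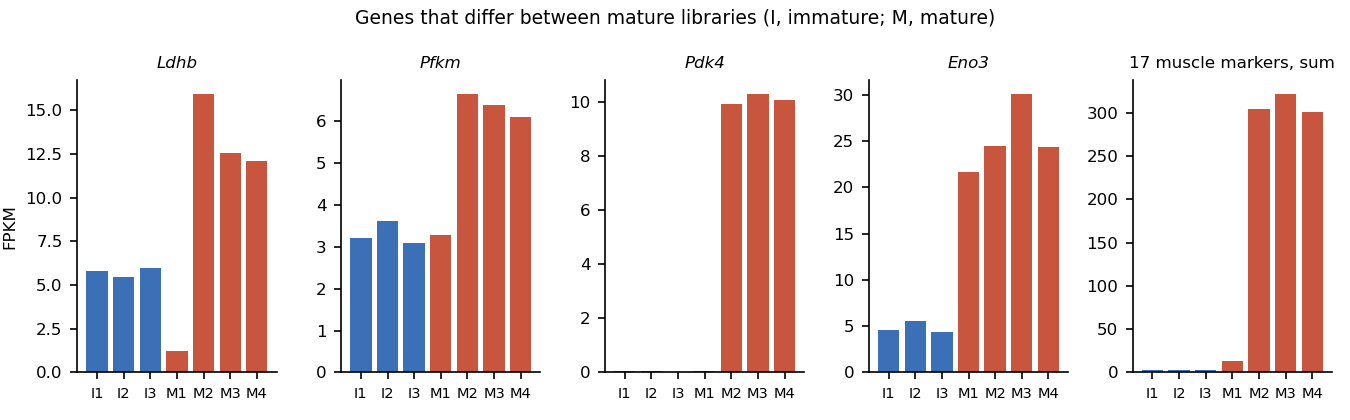
FPKM per library of Ldhb, Pfkm, Pdk4 and Eno3 and the summed FPKM of 17 cardiac and skeletal muscle markers (blue, immature I1 to I3; red, mature M1 to M4). Pdk4 and the muscle markers are near 0 in M1 and high in M2 to M4, Ldhb is lowest in M1, and Eno3 is higher in all 4 mature libraries.

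All 5 genes of the HIF-1 group fell at an adjusted p under 0.05, a threshold that 22.9% of all genes tested passed in the lower direction. Hif1a, on chr12:73901375-73947530, encodes the regulated subunit, and its CPM was 415, 387 and 382 in immature and 202, 202, 156 and 215 in mature libraries. Mature libraries were all lower, with mature replicate 3 the lowest, and the fall was 2.04-fold (log2 fold change −1.03 ± 0.11, SE, edgeR adjusted p = 1.04e-04). It was −0.91 without mature replicate 3 and −0.996 without immature replicate 1. Transcript levels do not show the amount of HIF-1α protein, which is set largely by its degradation. Egln3, a prolyl hydroxylase gene that HIF-1 itself induces, was at 104, 112 and 130 CPM in immature and 44.7, 53.1, 52.7 and 59.0 CPM in mature libraries and was 2.2-fold lower (edgeR adjusted p = 6.5e-05). Egln1, the main oxygen-sensing hydroxylase gene, was 1.35-fold lower. Its share of the FPKM of Egln1 and Egln3 went from 44.8% ± 1.74 (SD, n = 3) to 56.9% ± 1.46 (SD, n = 4). Egln2, with means of 15.4 FPKM in immature and 17.5 FPKM in mature libraries, was not counted in that share. Bnip3, which acts in mitophagy, was 1.78-fold lower, with a mean of 101 ± 5.48 (SD, n = 3) against 56.8 ± 7.27 CPM (SD, n = 4; edgeR adjusted p = 3.07e-04). Vegfa, which encodes the vascular growth factor, had 455, 419 and 431 CPM in immature and 345, 344, 323 and 331 CPM in mature libraries, a fall of 1.30-fold without overlap (edgeR adjusted p = 0.00268).

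Mature replicate 3 differed from the other mature libraries by gene length. Across the 32 genes, the CPM of mature replicate 3 over the average of mature replicates 1, 2 and 4 fell with the union exon length of the gene (Spearman rho = −0.60, across genes that share these libraries, given as a description), and 11 of 32 genes were lower in it. Without that library 13 genes were lower by at least 2-fold and 26 lower at an adjusted p under 0.05.

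The core letters of the HIF-response element, ACGTG, were looked for on both strands in the 250 bases upstream of the RefSeq transcript starts of the members (RefSeq, build GRCm38.p6). A window was found for 31 of 32 members, with 45 windows in all; Slc2a3 had none. The letters occurred in at least 1 window of 18 of the 31 members (58.1%), against 18.5% of the 27025 genes with a window. Counted per window, they occurred in 46.7% of the 45 member windows and in 16.6% of all 32851. Among windows with at least 60% GC, they occurred in 66.7% of the 24 member windows and in 23% of all 9178. Such windows were 24 of the 45 member windows and 9178 of all 32851 windows. Of the 14 members that fell by at least 2-fold, 8 held the letters, and of the 2 that rose, Pfkfb3 did and Eno2 did not. The list was picked to hold HIF-1 targets, so these shares are not a test of HIF-1. A match is a description of the sequence and not evidence of a bound site, and the palindrome CACGTG counts once on each strand. Windows of the following 5 members are shown because they carry the letters and belong to genes with the behaviours described above, the strongest fall (Hk2), the rise (Pfkfb3), the regulated subunit (Hif1a) and lactate and ATP production (Ldha, Pgk1). ACGTG on either strand is in capitals, and each is written 5′ to 3′ along the gene's strand.

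The Ldha window, chr7:46845554-46845803 on the plus strand, holds 5 matches, more than any other member window. The bases that follow its start were not found in a GENCODE M21 transcript of Ldha. Those of the other Ldha window, chr7:46846832-46847081, were found, and that window holds 0 matches.
Ldha: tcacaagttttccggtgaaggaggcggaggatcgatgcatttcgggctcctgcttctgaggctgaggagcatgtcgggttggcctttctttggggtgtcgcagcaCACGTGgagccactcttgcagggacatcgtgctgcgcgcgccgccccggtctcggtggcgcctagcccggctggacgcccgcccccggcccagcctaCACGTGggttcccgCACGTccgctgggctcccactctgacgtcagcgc
The Hk2 window, chr6:82774455-82774704 on the minus strand, holds 2 matches, at 226 and 52 bases before the start.
Hk2: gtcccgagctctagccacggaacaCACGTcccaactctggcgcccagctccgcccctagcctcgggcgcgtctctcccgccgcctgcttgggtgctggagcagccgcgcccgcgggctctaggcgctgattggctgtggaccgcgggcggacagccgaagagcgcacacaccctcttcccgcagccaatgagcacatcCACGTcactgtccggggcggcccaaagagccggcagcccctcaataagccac
The Pgk1 window, chrX:106186850-106187099 on the plus strand, holds 2 matches facing opposite ways.
Pgk1: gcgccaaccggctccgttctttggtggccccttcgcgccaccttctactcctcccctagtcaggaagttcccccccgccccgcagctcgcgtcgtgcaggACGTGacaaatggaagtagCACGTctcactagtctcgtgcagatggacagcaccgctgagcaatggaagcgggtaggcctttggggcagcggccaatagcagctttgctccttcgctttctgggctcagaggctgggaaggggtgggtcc
The Hif1a window, chr12:73907617-73907866 on the plus strand, holds 3 matches, of which the palindrome gives 2. The bases that follow its start were not found in a GENCODE M21 transcript of Hif1a.
Hif1a: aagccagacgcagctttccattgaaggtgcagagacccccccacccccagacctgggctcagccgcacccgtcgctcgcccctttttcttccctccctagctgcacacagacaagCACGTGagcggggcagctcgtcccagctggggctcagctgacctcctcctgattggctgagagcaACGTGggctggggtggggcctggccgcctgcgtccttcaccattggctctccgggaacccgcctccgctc
The Pfkfb3 window, chr2:11502091-11502340 on the minus strand, holds the palindrome, 2 matches, and overlaps annotated exons by 11 bases.
Pfkfb3: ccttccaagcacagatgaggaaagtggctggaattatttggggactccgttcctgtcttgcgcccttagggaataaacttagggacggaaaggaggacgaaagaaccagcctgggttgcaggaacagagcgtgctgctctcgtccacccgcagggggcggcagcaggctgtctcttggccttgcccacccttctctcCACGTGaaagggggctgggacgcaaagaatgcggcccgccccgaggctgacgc

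Neighbouring pathways were read from lists of other genes. Of all genes tested, 13.2% passed the criteria in the higher and 9.95% in the lower direction. At the adjusted p alone the shares were 23.2% and 22.9%. Of 14 tested genes for other glycolytic isoforms and regulators, 4 were higher by the criteria, Eno3, Pfkfb1, Slc2a4 and Gapdhs, and none were lower; at the adjusted p alone 4 were higher and 3 lower. The calls in this list were 2 without immature replicate 2 or immature replicate 3. Eno3, the muscle enolase, was at 9.11, 10.9 and 8.83 CPM in immature and at 39.2, 43.2, 59.3 and 44.5 CPM in mature libraries. It rose 4.84-fold in a way that included mature replicate 1 (edgeR adjusted p = 9.1e-06). Pfkfb1 rose 2.69-fold, from a mean of 3.44 ± 0.68 (SD, n = 3) to 9.28 ± 1.72 CPM (SD, n = 4). Slc2a4, which encodes the insulin-responsive transporter GLUT4, was at 0 to 0.20 CPM in immature libraries, 0.05 CPM in mature replicate 1 and 4.50, 3.12 and 3.23 CPM in mature replicates 2 to 4, so its groups overlapped and the call rests on the libraries with 301 to 322 FPKM of muscle markers. Gapdhs, the sperm form of Gapdh, was low throughout, at 0.08 to 0.14 CPM in immature and 0.26 to 0.65 CPM in mature libraries. The enolase pool thus held higher levels of both minor isoforms, Eno2 and Eno3, beside the lower Eno1.

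The list for pyruvate entry into mitochondria also held regulators of pyruvate dehydrogenase and the MCT transporter gene Slc16a7. In it 2 genes were higher and 2 lower of 13 tested, against 13.2% and 9.95% of all genes tested. At the adjusted p alone 3 were higher and 9 lower, against 23.2% and 22.9% of all genes tested. Pdp1, a phosphatase that switches pyruvate dehydrogenase on, fell 2.87-fold and Slc16a7, which encodes MCT2, fell as well, with a log2 fold change of −2.12. Pdk2 was 2.08-fold higher, at 12.2, 10.9 and 13.9 against 19.8, 28.9, 26.4 and 27.9 CPM, all 4 mature libraries above the immature ones (edgeR adjusted p = 5.68e-04). Pdk4, also called higher, was at 0.17, 0.18 and 0 CPM in immature libraries and at 0.21 CPM in mature replicate 1. It was at 35.4, 41.0 and 37.1 CPM in mature replicates 2 to 4, so that call rests on the libraries rich in muscle markers. Ldhb also set mature replicate 1 apart from the other mature libraries, but below the immature level. The kinases Pdk1 and Pdk3 thus fell while Pdk2 rose.

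The pentose phosphate pathway makes NADPH from glucose 6-phosphate. Of its 8 genes, none rose and 2 fell by the criteria, while 6 fell at the adjusted p alone. The same falls were seen in 9.95% and 22.9% of all genes tested. Pgd, the phosphogluconate dehydrogenase, was 3.06-fold lower, at 617, 619 and 661 against 193, 186, 235 and 212 CPM (edgeR adjusted p = 3.0e-06), and H6pd was 2.19-fold lower. Of 14 tested genes of gluconeogenesis and glycogen, 3 were higher and 4 lower by the criteria, against 13.2% and 9.95% of all genes tested. At the adjusted p alone 4 were higher and 9 lower, against 23.2% and 22.9% of all genes tested. The glycogen phosphorylase gene Pygl fell 2.50-fold, and the branching enzyme gene Gbe1 fell 2.35-fold. Gyg, which primes glycogen synthesis, rose 2.54-fold, with 175, 171 and 184 against 438, 420, 495 and 447 CPM. Pygm, the muscle phosphorylase, was at 0.82 CPM in mature replicate 1 and at 15.0 to 20.8 CPM in the other mature libraries. Fbp1, called lower, was at 20.2, 20.8 and 26.3 CPM in immature libraries. It was at 10.2 CPM in mature replicate 2, the library with kidney transcripts, and at 1.97 to 2.69 CPM in the other mature libraries. Fbp2, also called higher, had 0 counts in the immature libraries and in mature replicate 1 and was at 0.77 to 1.04 CPM in mature replicates 2 to 4, so that call, too, rests on the libraries rich in muscle markers.

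Of 30 other genes of the HIF pathway, 2 were higher and 7 lower by the criteria, which 13.2% and 9.95% of all genes tested passed. At the adjusted p alone 5 were higher and 10 lower, and the median log2 fold change was 0.03. Genes that were lower were Trem1 (6.94-fold), Selenbp1 (3.17-fold), Ero1l (3.11-fold), Ankrd37 (2.90-fold), Plod1 (2.67-fold), P4ha1 (2.54-fold) and P4ha2. Ero1l, an oxidase of the endoplasmic reticulum that forms disulphide bonds, was at 400, 391 and 401 CPM in immature and 119, 134, 108 and 151 CPM in mature libraries. P4ha1 and Plod1 hydroxylate collagen, and Ankrd37 is a small ankyrin repeat gene. Vhl, which targets HIF-1α for degradation, and Ndrg1, a stress-responsive gene, were higher, with log2 fold changes of 1.19 and 1.28. Arnt, the partner of HIF-1α, had a log2 fold change of −0.47 (edgeR adjusted p = 0.0157), and Kdm3a, Car9 and Ccng2, which are known as HIF targets, had log2 fold changes of −0.02. Whether this list differed from the 32 genes was not tested.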

How the data were processed

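RNA of flow-sorted immature (3 libraries) and mature (4 libraries) BMDCs was analysed, grouped by the sample labels. The deposited table of the authors holds whole-number counts, treated here as estimated counts because values such as 4 and 8 were over-represented among low counts, and FPKM values scaled by gene length and library total. The submitters' processing notes name cutadapt 1.9, HISAT2 2.2.1, StringTie 2.1.6, DESeq2, edgeR and the build mm9. Start and end matched GENCODE M21 on GRCm38 for 25842 of 28666 genes (90.1%), so coordinates are given as GRCm38. The sources used here do not say how reads with several matches were treated.

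The test was that of edgeR 4.0.16 in R 4.3.3 (filter on low counts, TMM, quasi-likelihood test, all 7 libraries, Benjamini-Hochberg adjustment over 17461 genes); a called gene has an adjusted p under 0.05 and a change of at least 1 in log2 units either way, the study's criteria. CPM compares libraries and FPKM compares genes. Intervals are 95% intervals of the fit. Every member was named, as were up to 6 called genes per other list with the largest change and a mean FPKM of at least 1 in the higher group; others named make up small counts or stood out, a choice made once their values were known. An item that the naming rule would give is not reported here. The members and lists were chosen with earlier results of these data known, and 5 listed genes were not analysed here. Alternatives were limma 3.58.1 on log2 FPKM and TPM, DESeq2 1.42.0, other scalings and filters, a replicate block and the omission of libraries; counts divided by 4 were added after seeing the data. Python 3.11.15, pandas 2.3.3, numpy 2.4.6, scipy 1.17.1 and matplotlib 3.10.9 were used.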

Additional observations from a re-analysis of the deposited data

Results flagged for a closer look

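In the 4 mature libraries, 88 values (the levels of members and of named list genes, paralog shares and list sums) were examined for a library whose gap to its nearest neighbour was an unusually large fraction of the whole range. If the values were independent, about 1 in 20 would be by chance, or 4.4 of 88, and 8 were. Shares within a family and list sums depend on other values in the set, so 4.4 is only a rough guide. Mature replicate 1 was the low library in 4 of them, with a gap of 0.863 of the range for Pdk4 (0.21 CPM against 35.4 to 41.0), 0.851 for the summed FPKM of genes of pyruvate entry into mitochondria (91.2 against 114 to 118), 0.932 for the muscle markers (13.1 against 301 to 322) and 0.843 for erythroid markers (1.5 against 4.13 to 4.62). Mature replicate 2 was the high library in 2, with 0.913 for Fbp1 and 0.990 for the kidney markers. Mature replicate 3 was the high library for Pfkfb1 (0.917, 11.9 CPM against 8.22 to 8.52). It was the low one for the share of Slc2a3 among the glucose transporters of the 32 genes (0.891, 2.32% against 3.11% to 3.21%). No CPM of the 32 genes themselves was so far apart.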

How the results depend on the processing

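Over 18 other settings the 32 genes gave 576 fits, of which 539 kept their direction and side of the criteria, and 21 genes did so in every one. In 31 a gene no longer passed, in 3 it passed where it had not, and in 3 it changed sign: Pfkm (−0.11) and Ldhb (−2.36) with mature replicate 1 alone and Gapdh without immature replicate 2, whose log2 fold change was −1.10 to 0.33 with 1 library left out. Slc2a1, Hk2, Hk3, Aldoc, Pfkfb4, Pgam1 and Eno1 were lower by the criteria in all settings; the other 7 lay near the 2-fold line and lost it in at least 1. From 25 to 26 genes were lower at an adjusted p under 0.05 in every setting. Without 1 library at a time 13 to 14 genes were lower and 2 to 3 higher by the criteria, and over all genes 1633 to 1759 lower and 1940 to 2306 higher; the lists gave 2 to 4 calls for other glycolysis genes (2 without immature replicate 2 or 3), 3 to 4 for pyruvate entry, 2 for the pentose phosphate pathway, 6 to 7 for gluconeogenesis and glycogen and 8 to 9 for the HIF list. Limma on log2(FPKM + 1) gave 7 members lower, 946 genes higher and 822 lower, and 1, 2, 1 and 4 calls in the first 4 lists. Calls of all genes in the higher direction were 1370 with the FPKM filter, 1390 with a pseudocount of 0.1 and 1183 on the TPM scale, each with 2 calls in the list of other glycolysis genes. With mature replicate 1 alone, that list and pyruvate entry had 2 each. On the adjusted p alone 26 members, 4047 genes higher and 4006 lower, and 7, 12, 6, 13 and 15 list genes passed. Libraries with the same replicate number in both groups deviated from their group means with correlations of 0.0285, −0.00114 and 0.0144, and not every library correlated best with its own number. With a replicate block 14 members were lower and 2 higher, as without it, and the first list had 2 calls; no other count of calls changed by over 1.5 times. Upper-quartile scaling moved the median of all genes from 0.06 to 0.17 and left 10 members lower by the criteria. The cause of these changes was not tested. Low levels, such as Eno2 at 1.67 to 2.39 CPM in immature libraries, carry the most counting error.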
